A study of Mus musculus with 6 samples.

Results

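Tac2 GABA neurons were inhibitory neurons of the mouse preoptic region that carried the transcript of Tac2, the precursor of the tachykinin peptide neurokinin B. A cell barcode counted as a GABA neuron when it had at least 500 genes, at most 20% mitochondrial UMIs (molecular barcodes that count captured RNA molecules), at least 4 UMIs of Snap25 and Syt1 together, at least 3 UMIs of Gad1, Gad2 and Slc32a1 together, no Slc17a6 UMI and at most 1 UMI of Mog, Cx3cr1 and Cldn5 together. Among 30824 barcodes that passed the gene and mitochondrial filters, 12580 were GABA neurons. Of these, 335 (2.66%) held at least 5 Tac2 UMIs and were selected on that value as the Tac2 GABA neurons, and the other 12245 were the cells they were compared with. Cells were dissociated with protease from freshly dissected tissue, sorted for viability and sequenced with droplet-based single-cell RNA sequencing (10x Chromium). The 3 female and 3 male libraries each came from a pool of 3 mice of 60 to 70 days that had been kept singly for 3 days. No strain, genotype or cycle stage is given in the labels used here, and pooling hides the variation between mice. A library is therefore 1 replicate.

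Neurokinin B acts mainly on the receptor encoded by Tacr3, whereas substance P and neurokinin A, made from the related gene Tac1, act mainly on the receptors of Tacr1 and Tacr2. In the hypothalamus neurokinin B is best known from excitatory arcuate neurons that also make kisspeptin and dynorphin and drive the pulses of gonadotropin-releasing hormone. Inhibitory neurons that make the peptide are known from the forebrain too, among them neurons of the extended amygdala and some interneurons.

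The Tac2 gene lies on chromosome 10 (chr10:127724478-127731768, plus strand, mm10). The upstream 250 bases of Tac2, of its paralogue Tac1 and of Trh are shown, because Trh was higher and Tac1 lower in the Tac2 GABA neurons. They are taken from RefSeq promoter windows on GRCm38.p6, the same assembly as mm10, and run 5′ to 3′ on the gene's strand up to the base before the annotated start. Capitals mark half-sites of the cyclic AMP response element (TGACG) and of nuclear factor I (TTGGC), on either strand.
Tac2 (chr10:127724228-127724477, plus strand): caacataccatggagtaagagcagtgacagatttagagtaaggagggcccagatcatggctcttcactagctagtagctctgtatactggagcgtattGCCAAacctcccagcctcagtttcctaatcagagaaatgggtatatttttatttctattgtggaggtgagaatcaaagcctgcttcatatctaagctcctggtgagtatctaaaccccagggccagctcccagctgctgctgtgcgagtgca
Tac1 (chr6:7554811-7555060, plus strand): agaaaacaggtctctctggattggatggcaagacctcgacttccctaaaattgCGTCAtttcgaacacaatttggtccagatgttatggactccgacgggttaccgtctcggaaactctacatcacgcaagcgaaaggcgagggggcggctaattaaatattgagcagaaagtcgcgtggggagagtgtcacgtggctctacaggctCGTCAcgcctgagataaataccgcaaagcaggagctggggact
Trh (chr6:92244651-92244900, minus strand): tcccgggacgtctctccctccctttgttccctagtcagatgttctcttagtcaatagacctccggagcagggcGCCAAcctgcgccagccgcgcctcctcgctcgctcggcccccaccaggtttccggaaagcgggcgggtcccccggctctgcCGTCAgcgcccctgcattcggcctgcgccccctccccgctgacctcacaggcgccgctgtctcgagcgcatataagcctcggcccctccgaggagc
The nuclear factor I half-site occurred once in Tac2, 152 bases before the start, once in Trh, 177 bases before it, and not in Tac1. The cyclic AMP half-site occurred 2 times in Tac1 and once in Trh, and not in the Tac2 window. Among all 32851 windows of this length, 41.5% held the nuclear factor I half-site and 17.8% the cyclic AMP half-site. The full cyclic AMP element (TGACGTCA, in 1.55% of windows), the AP-1 element (TGANTCA, in 6.75%) and the TATA sequence (TATAAA, in 12.4%) were found in none of the 3 windows. These matches describe the letters of the windows and do not show binding.

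Tac2 counts ran down gradually from the many cells without a UMI to a long tail. Of the GABA neurons, 11531 had no Tac2 UMI, 714 had 1 to 4, 185 had 5 to 9, 117 had 10 to 29 and 33 had at least 30. The median Tac2 GABA neuron held 8 Tac2 UMIs and the highest 94. The 55 cells just inside the threshold, with 5 UMIs, had a pooled level of 658 UMIs per 1000000 UMIs (CPM), and the 68 just outside it, with 4 UMIs, had 492 CPM. Tac2 itself chose the cells, so its levels are given without a test.

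**Figure D1:**
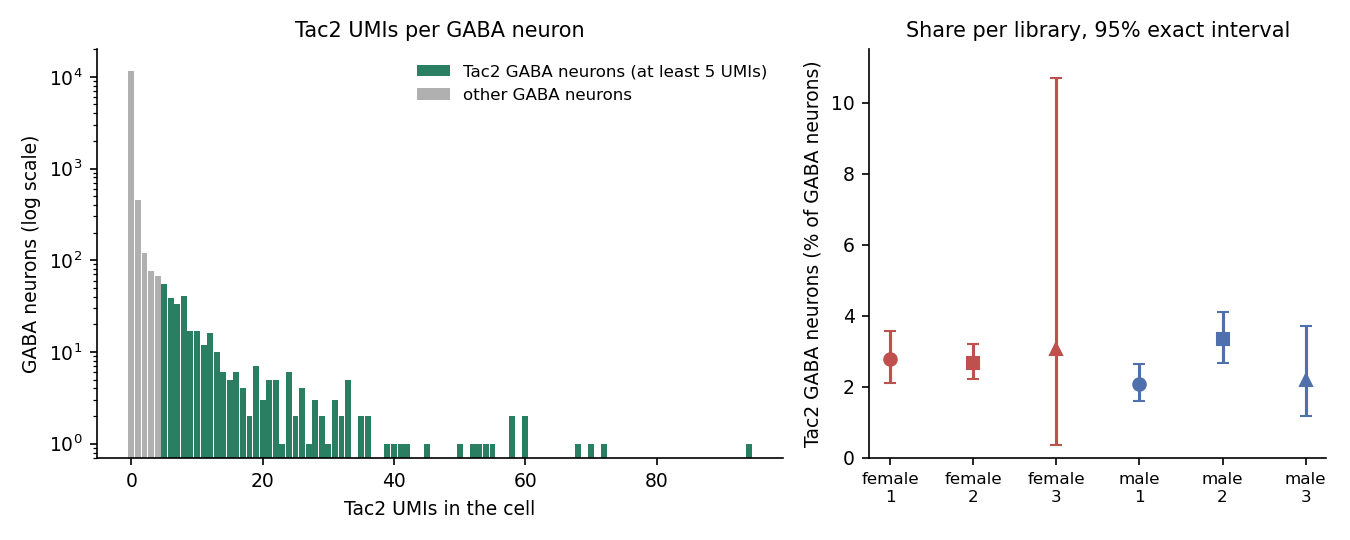
Left, number of GABA neurons (log scale) by Tac2 UMIs in the cell, with the 335 Tac2 GABA neurons in green from 5 UMIs upward. Right, Tac2 GABA neurons as a percent of GABA neurons in each library with the exact 95% interval, which runs from 0.375% to 10.7% in the small female replicate 3.

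Oligodendrocytes, which should lack Tac2, gave the level that free RNA in the droplets can reach. Among 6538 mature oligodendrocytes (at least 3 Mog UMIs and under 4 of Snap25 and Syt1), 104 (1.59%) held a Tac2 UMI, the most was 2, and 0 held 5, which allows a share of up to 0.0459%. Of the other GABA neurons, 5.83% held a Tac2 UMI. The median depth was 9418 UMIs in Tac2 GABA neurons, 7273 in other GABA neurons and 4924 in oligodendrocytes. A threshold on raw UMIs selects deeper cells, so levels are given below as CPM of UMIs summed per library. No barcode sequence of a Tac2 GABA neuron recurred as such a cell in another library, while 479 sequences occurred in more than 1 library among all barcodes. Scrublet called 8 Tac2 GABA neurons and 212 other GABA neurons doublets, out of 1002 calls in all, and they were kept.

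The rule's GABA clause bounded the population on one side. Of 428 passing barcodes with at least 5 Tac2 UMIs, 93 fell outside it: 60 held Slc17a6, the vesicular glutamate transporter gene, and 22 of these met every other clause. Slc17a6 at 0 was thus a condition and not a finding. Of 692 glutamate neurons (at least 3 Slc17a6 UMIs and none of Gad1, Gad2 and Slc32a1), 11 reached 5 Tac2 UMIs.

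The share of Tac2 GABA neurons among GABA neurons did not differ beyond the spread between libraries of the 2 sexes. They were 58 of 2086, 112 of 4182 and 2 of 65 GABA neurons in female replicates 1, 2 and 3, or 2.78%, 2.68% and 3.08%. They were 63 of 3041, 87 of 2610 and 13 of 596 in male replicates 1, 2 and 3, or 2.07%, 3.33% and 2.18%. The share averaged 2.85% ± 0.207 in females and 2.53% ± 0.699 in males (SD, n = 3 each). The female minus male difference of 0.316 percentage points lay within the spread of the male libraries (exact two-sided permutation p = 0.5, the smallest that this design allows being 0.1). The libraries of the 2 sexes overlapped, with male replicate 2 highest of all.

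The levels below come from the 4 libraries with at least 20 Tac2 GABA neurons, female replicates 1 and 2 and male replicates 1 and 2, and 4 values in a row are in that order. Summed depth was 536285, 1275149, 614111 and 801194 UMIs in Tac2 GABA neurons, against 17341819, 37394047, 20051067 and 19093090 UMIs in other GABA neurons. Tac2 stood at 1238, 1328, 1272 and 1663 CPM in Tac2 GABA neurons, against 9.69, 9.68, 15.6 and 13.8 CPM in other GABA neurons. The other genes of the rule were close between the populations, with Gad1 at 572 to 653 CPM in Tac2 GABA neurons and 574 to 629 CPM in other GABA neurons. Gad2 stood at 923 to 1062 CPM in Tac2 GABA neurons and 846 to 970.4 CPM in other GABA neurons, and Slc32a1 at 358 to 453 CPM in Tac2 GABA neurons and 347 to 398 CPM in other GABA neurons.

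Across the transcriptome, 447 of 14177 genes tested differed between the populations at an adjusted p under 0.05 (3.15%; edgeR quasi-likelihood test with the library as block and Benjamini-Hochberg adjustment). Of these, 189 were higher (1.33%) and 258 lower (1.82%) in Tac2 GABA neurons. The count was 223 by DESeq2, 157 with every cell thinned to 3000 UMIs, 110 without the block and 238 without male replicate 2. The other GABA neurons are a mixture of many types, so a log2 change sets the Tac2 cells against the average of that mixture. The test shares its estimate of the spread between libraries among genes. The standard errors of peptide genes can therefore be smaller than the spread of their 4 values, which are given for that reason. A sign-flip test on 4 library pairs alone could not go below a two-sided p of 0.125. Counts of called genes in the gene lists below are read beside the 1.33% higher and 1.82% lower over all genes.

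**Figure D2:**
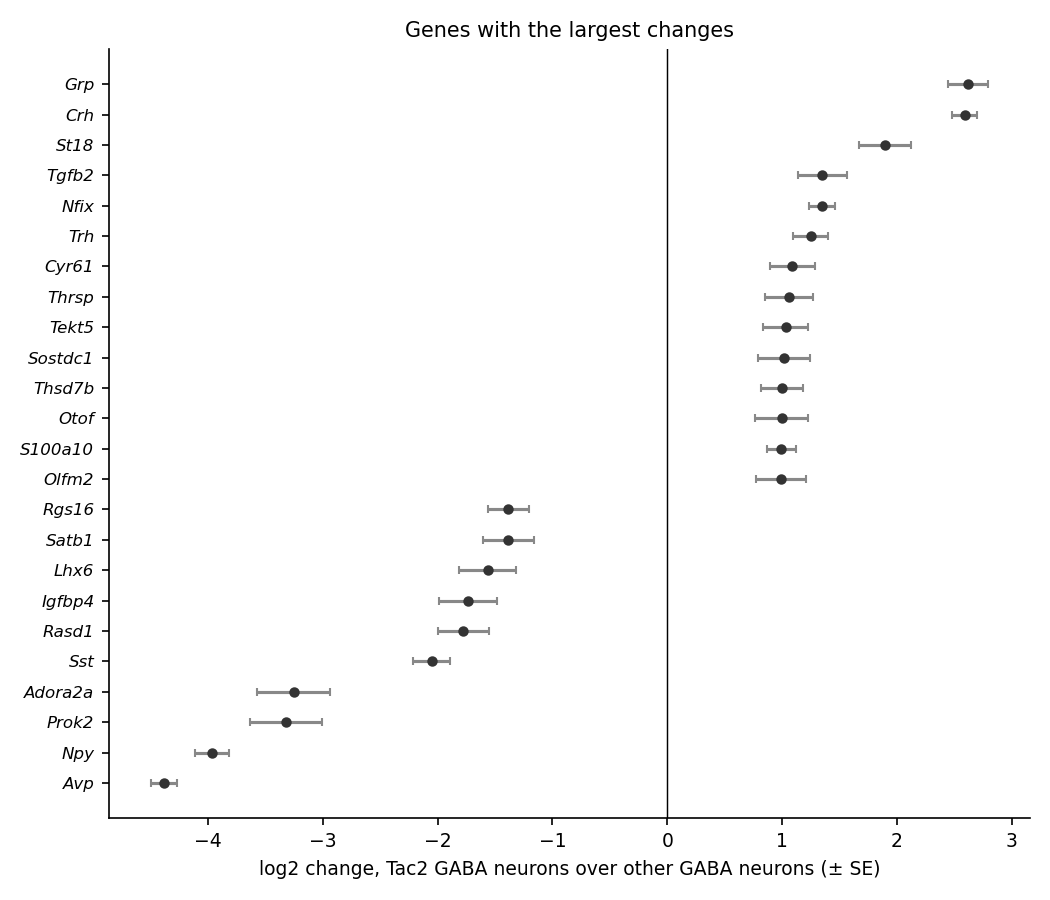
Log2 change of CPM in Tac2 GABA neurons over other GABA neurons (x axis, 4 libraries). Bars are ± SE of the edgeR fit, which can be smaller than the spread between libraries. Shown are genes from the 15 largest increases and 10 largest decreases among called genes of 1 sign in all 4 libraries. They also had at least 20 CPM in the higher population. Grp and Crh head the increases at 2.62 and 2.59, and Avp and Npy are at the other end at -4.39 and -3.97.

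Peptide genes stood at both ends of the comparison. Of 32 other neuropeptide genes tested, 4 were higher in Tac2 GABA neurons, namely Crh, Grp, Trh and Pnoc, and 10 were lower, with a median log2 change of -0.35 beside -0.03 over all genes. Pnoc was outside the naming rule and was singled out after its values were seen.

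Crh, which encodes corticotropin-releasing hormone, the peptide that starts the pituitary stress response and also acts as a transmitter, had 267, 133, 219.8 and 303 CPM in Tac2 GABA neurons, against 37.7, 38.0, 26.6 and 42.9 CPM in other GABA neurons. The 2 ranges did not overlap, and the log2 change was 2.59 ± 0.11 (adjusted p = 2.1e-30). These reads came from 8 to 15 cells per library, with at most 24.5% of a library's Crh UMIs in 1 cell. Crh was thus found in a minority of the population.

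Grp, the gene of gastrin-releasing peptide, a bombesin-like peptide, had 52.2, 40.0, 40.7 and 111 CPM in Tac2 GABA neurons, against 8.94, 8.96, 7.78 and 12.1 CPM in other GABA neurons, a log2 change of 2.62 ± 0.17 (adjusted p = 1.7e-19). It came from 2 to 10 cells per library. In female replicate 1 a single cell held 27 of the 28 Grp UMIs, and in the other 3 libraries the highest cell held between 36.0% and 44.9%.

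Trh, the precursor of thyrotropin-releasing hormone, had 74.6, 69.0, 40.7 and 89.9 CPM in Tac2 GABA neurons, against 24.2, 41.4, 28.98 and 19.4 CPM in other GABA neurons (log2 change 1.25 ± 0.15, adjusted p = 1.1e-08). Male replicate 1 of the Tac2 cells, at 40.7 CPM, lay just under the highest library of the other cells, so the ranges overlapped although each library had the same sign. Pnoc, the precursor of nociceptin, had 168, 195, 168 and 147 CPM in Tac2 GABA neurons, against 92.6, 105, 86.0 and 90.5 CPM in other GABA neurons. Its log2 change was 0.86 ± 0.08 (adjusted p = 1.2e-12), the ranges did not overlap, and no cell held more than 12.2% of a library's Pnoc UMIs.

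Avp and Npy were lower in Tac2 GABA neurons. Avp, which encodes vasopressin and marks neurons of the suprachiasmatic clock among others, had 35.4, 70.6, 26.1 and 2.50 CPM in Tac2 GABA neurons, against 846, 1310, 323 and 345 CPM in other GABA neurons (log2 change -4.39 ± 0.12, adjusted p = 5.2e-42). Npy, the gene of neuropeptide Y, had 16.8, 10.98, 21.2 and 8.74 CPM in Tac2 GABA neurons, against 160.1, 246, 182 and 213 CPM in other GABA neurons (log2 change -3.97 ± 0.15, adjusted p = 7.1e-33). For both genes the highest Tac2 library lay far under the lowest library of the other cells. UMIs of these genes also occurred in oligodendrocytes, where 17.3% of cells held an Avp UMI and 5.58% an Npy UMI, and the part of free RNA in the low levels of Tac2 cells was not tested.

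Sst, the gene of somatostatin, had 39.2, 243, 161 and 16.2 CPM in Tac2 GABA neurons, against 435, 600.2, 364 and 542 CPM in other GABA neurons (log2 change -2.05 ± 0.16, adjusted p = 3.0e-16). Female replicate 2 was the highest Tac2 library and male replicate 2 the lowest, and all 4 lay under the other cells. A single cell held 76 of the 99 Sst UMIs of male replicate 1, and another 118 of the 310 of female replicate 2. Prok2, a clock output peptide, had 3.73, 5.49, 0 and 1.25 CPM in Tac2 GABA neurons, against 20.5 to 35.1 CPM in other GABA neurons (log2 change -3.32 ± 0.31, adjusted p = 7.3e-13). Penk, the enkephalin precursor, had 572, 351, 366 and 238 CPM in Tac2 GABA neurons, against 835, 599.6, 1026 and 932 CPM in other GABA neurons (log2 change -1.16 ± 0.09, adjusted p = 2.3e-16).

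Within the tachykinin system itself, Tac1 had 278, 181, 241 and 276 CPM in Tac2 GABA neurons, against 387, 299.8, 515 and 413 CPM in other GABA neurons, and fell by 0.72 ± 0.07 on the log2 scale (adjusted p = 1.2e-11). The groups did not overlap. Tacr3, the receptor gene for neurokinin B, had 9.32, 5.49, 11.4 and 13.7 CPM in Tac2 GABA neurons, against 5.59, 6.58, 4.54 and 6.70 CPM in other GABA neurons. It was not called (log2 change 0.65 ± 0.33, adjusted p = 0.37). No Tacr2 UMI was seen in the Tac2 GABA neurons of these libraries. Cartpt, a satiety and reward peptide precursor, had 289, 173, 291 and 477 CPM in Tac2 GABA neurons, against 276, 255, 231 and 268 CPM in other GABA neurons, and was not called either (adjusted p = 0.38).

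**Figure D3:**
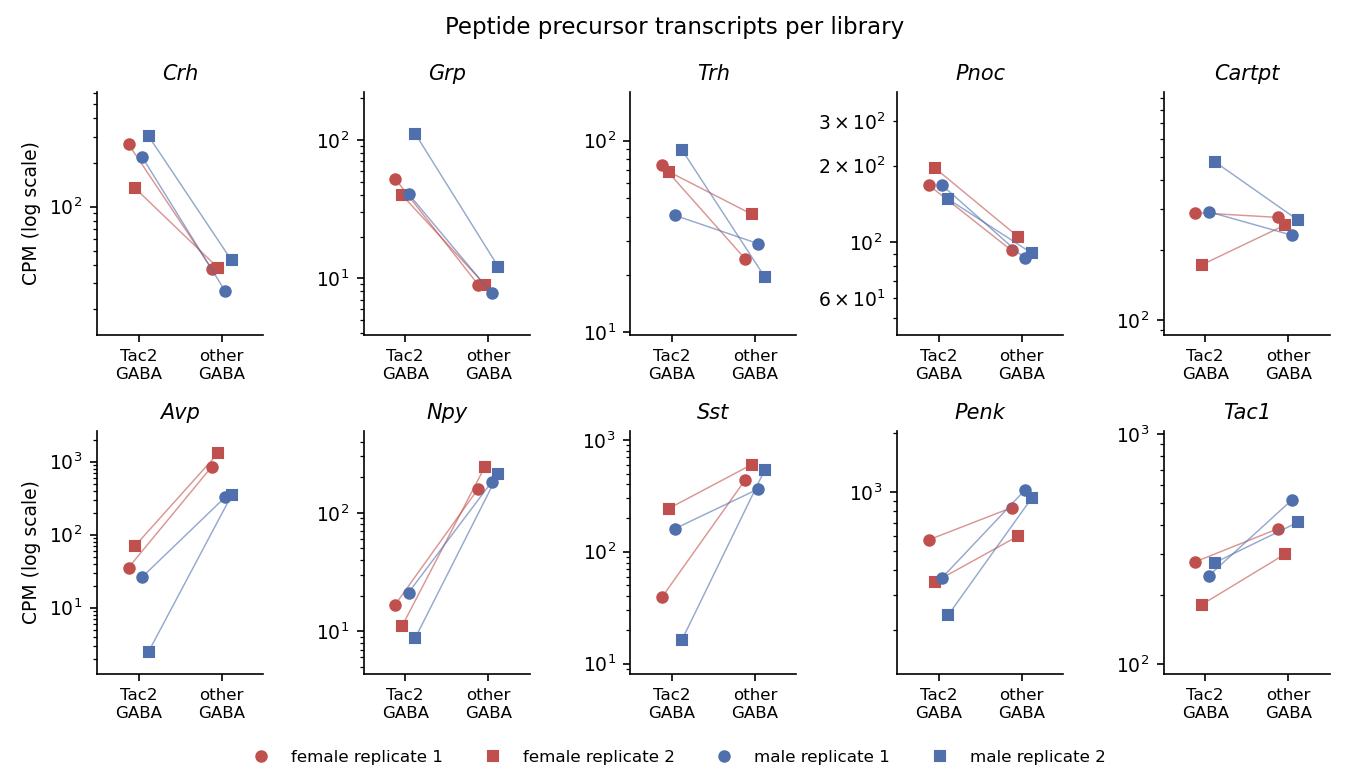
CPM on a log scale of 10 peptide precursor genes in Tac2 GABA neurons and other GABA neurons of the 4 libraries, with lines joining the 2 populations of a library. Crh, Grp and Pnoc lie wholly above the other GABA neurons in the Tac2 cells, Avp, Npy, Sst, Penk and Tac1 wholly below, and Cartpt crosses.

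Counting cells with at least 5 UMIs of a second peptide gave the mix of peptides inside the population. Penk reached this level in 58 of 335 Tac2 GABA neurons (17.3%, exact 95% interval 13.4% to 21.8%) and in 18.5% of other GABA neurons. Cartpt reached it in 12.8% of Tac2 GABA neurons and 9.95% of other GABA neurons, Tac1 in 12.5% of Tac2 GABA neurons and 13.1% of other GABA neurons, and Nts, the gene of neurotensin, in 11.04% of Tac2 GABA neurons and 8.61% of other GABA neurons. Gal, the gene of galanin, reached it in 11.04% of Tac2 GABA neurons and 5.77% of other GABA neurons. Its level, 213 to 356 CPM in Tac2 GABA neurons and 175 to 355 CPM in other GABA neurons, was not called (adjusted p = 0.059).

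For Crh, Trh and Grp the shares lay further apart. Crh reached 5 UMIs in 32 Tac2 GABA neurons (9.55%, 6.63% to 13.2%), with 8.04% to 12.6% in each of the 4 libraries, and in 1.82% of other GABA neurons. Trh reached it in 13 Tac2 GABA neurons (3.88%) and 0.604% of other GABA neurons, and Grp in 10 Tac2 GABA neurons (2.99%) and 0.343% of other GABA neurons. Read the other way, Tac2 GABA neurons made up 12.5% of the 255 GABA neurons with Crh at this level, 14.9% of the 87 with Trh and 19.2% of the 52 with Grp, beside 2.66% of all GABA neurons. After thinning each cell to 3000 UMIs and asking for 2 UMIs, Crh was found in 9.42% of Tac2 GABA neurons and 2.02% of other GABA neurons. Of the 41 listed peptides other than Tac2, none reached 5 UMIs in 129 Tac2 GABA neurons (38.5%) and 5660 other GABA neurons (46.2%). That comparison was not repeated after thinning, and the Tac2 cells are deeper. Kiss1, the kisspeptin gene of the arcuate Tac2 neurons, reached 5 UMIs in 0 of 335, which allows a share of up to 0.896%. It reached that level in 3 other GABA neurons (0.0245%), too few for the 0 to set the Tac2 cells apart. Pdyn, the dynorphin gene, reached 5 UMIs in 10 Tac2 GABA neurons (2.99%) and in 1.73% of other GABA neurons. After thinning, Pdyn was found in 2.43% of Tac2 and 3.13% of other GABA neurons. Intervals and floors cover counting error only.

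Esr1 and Prlr, receptors for estrogen and prolactin, were called higher in Tac2 GABA neurons. Esr1, the estrogen receptor alpha gene, had 14.9, 33.7, 21.2 and 11.2 CPM in Tac2 GABA neurons, against 12.7, 17.9, 8.63 and 8.90 CPM in other GABA neurons (log2 change 0.77 ± 0.21, adjusted p = 0.024). The Esr1 ranges overlapped, and the call ended without female replicate 2, without male replicate 1 or without male replicate 2. Esr2 was at 0 in the Tac2 cells.

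Prlr, the prolactin receptor gene, had 87.6, 118, 142 and 82.4 CPM in Tac2 GABA neurons, against 82.6, 82.7, 73.1 and 79.9 CPM in other GABA neurons (log2 change 0.43 ± 0.10, adjusted p = 0.0056). Male replicate 2 of the Tac2 cells lay inside the range of the other cells. The Prlr call was lost without female replicate 2 and without male replicate 1. Rxfp1, the relaxin receptor gene, was scarce but higher, with 7.46, 5.49, 14.7 and 7.49 CPM in Tac2 GABA neurons, against 1.33, 1.12, 1.15 and 1.20 CPM in other GABA neurons (log2 change 2.77 ± 0.46, adjusted p = 1.5e-05). The Tac2 values rest on 26 UMIs in all. Calcr, the calcitonin receptor gene, known from preoptic neurons with a role in parenting, had 3.73, 5.49, 1.63 and 1.25 CPM in Tac2 GABA neurons, against 17.9, 18.8, 10.5 and 11.52 CPM in other GABA neurons (log2 change -2.17 ± 0.35, adjusted p = 7.9e-06). Of 43 peptide and hormone receptor genes tested, 2 were higher and 3 lower, beside 1.33% and 1.82% of all genes tested. With cells thinned to 3000 UMIs the calls of Esr1, Prlr and Calcr ended, and DESeq2 did not call Esr1 or Prlr. Dropping the block also ended the calls of Esr1, Prlr and Calcr.

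Among 28 monoamine, acetylcholine, adenosine and cannabinoid receptor genes tested, 3 were higher and 3 lower, beside 1.33% and 1.82% of all genes. Htr3a, the ion channel subunit for serotonin, had 16.8, 14.9, 4.89 and 19.97 CPM in Tac2 GABA neurons, against 5.82, 4.20, 6.83 and 5.29 CPM in other GABA neurons (log2 change 1.44 ± 0.30, adjusted p = 8.9e-04). Male replicate 1 had the opposite sign, and the call ended without male replicate 2. Cnr1, the cannabinoid receptor gene, had 57.8, 130.2, 129 and 141 CPM in Tac2 GABA neurons, against 66.5, 84.1, 82.1 and 108 CPM in other GABA neurons (log2 change 0.45 ± 0.10, adjusted p = 0.0015). Female replicate 1 went the other way, and the call ended without female replicate 2. Adora2a, the adenosine receptor gene of striatal projection neurons, had 7.46, 0.784, 3.26 and 2.50 CPM in Tac2 GABA neurons, against 30.4, 18.7, 34.0 and 31.5 CPM in other GABA neurons (log2 change -3.25 ± 0.32, adjusted p = 3.8e-12). Thinning ended the Htr3a and Cnr1 calls. The Htr3a call also ended with a Tac2 minimum of 10 UMIs, and the Cnr1 call by DESeq2 and without the block.

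**Figure D4:**
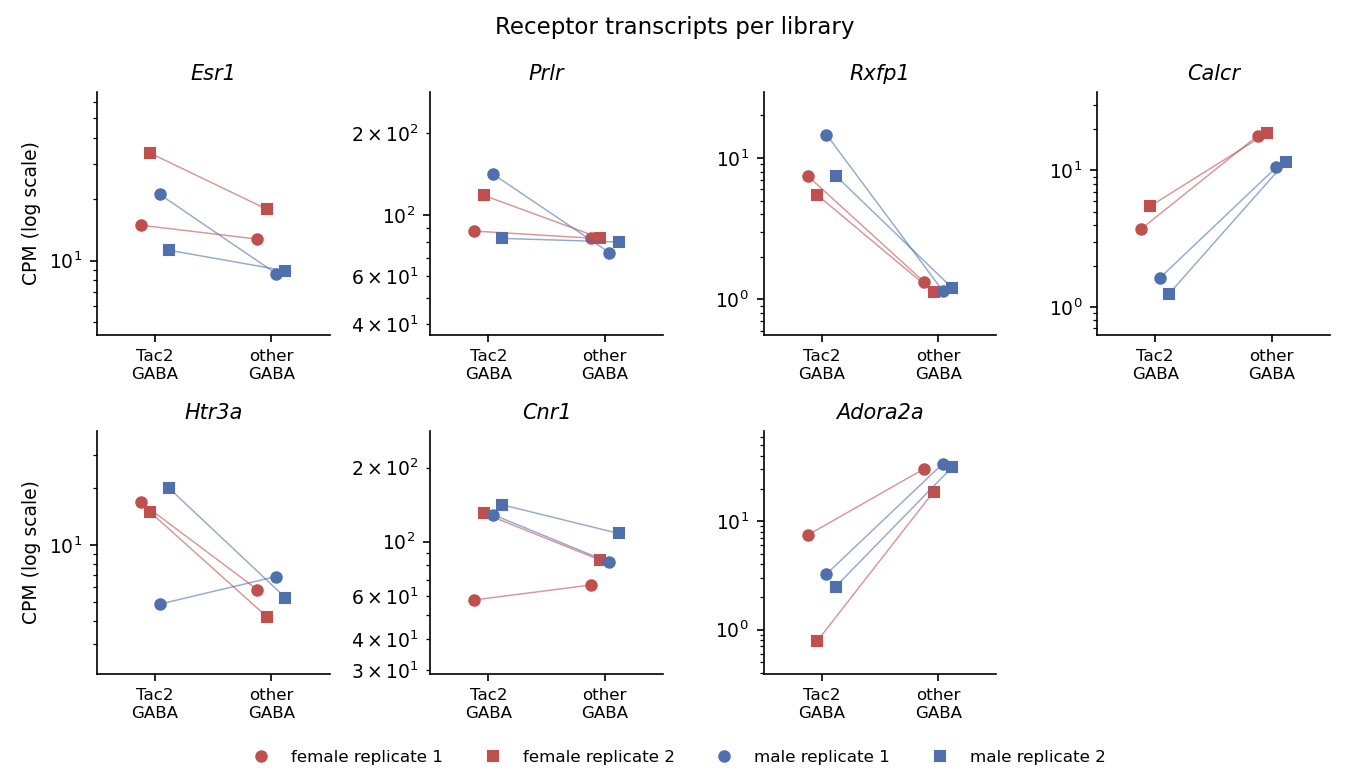
CPM on a log scale of receptor genes in Tac2 GABA neurons and other GABA neurons of the 4 libraries. Rxfp1 lies above the other GABA neurons in all 4 libraries without overlap, Calcr and Adora2a below, and Esr1, Prlr, Htr3a and Cnr1 overlap between the populations.

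Many transcription factors that pattern the forebrain were called. Of 75 tested, 13 were higher and 18 lower in Tac2 GABA neurons, with a median log2 change of -0.19. Over all genes tested, 1.33% were higher and 1.82% lower, with a median of -0.03. Nfix, a nuclear factor I gene, had 83.9, 94.9, 92.8 and 71.1 CPM in Tac2 GABA neurons, against 33.9, 34.8, 31.8 and 34.3 CPM in other GABA neurons, with tight and separate ranges (log2 change 1.35 ± 0.11, adjusted p = 1.6e-14). In oligodendrocytes, an Nfix UMI was found in 62.6% of cells. Nfia and Nfib, its relatives, were called higher too, at 0.70 ± 0.19 and 0.46 ± 0.13 on the log2 scale. St18, a zinc finger factor, had 50.3, 14.9, 29.3 and 43.7 CPM in Tac2 GABA neurons, against 7.15, 8.80, 8.18 and 9.32 CPM in other GABA neurons (log2 change 1.90 ± 0.23, adjusted p = 4.2e-09). Meis2, a homeobox gene of ganglionic eminence derivatives, had 276 to 466 CPM in Tac2 GABA neurons, against 177 to 299 CPM in other GABA neurons (log2 change 0.44 ± 0.08, adjusted p = 3.3e-05). The Meis2 call ended with a Tac2 minimum of 10 UMIs and without the block. Within the Tac2 cells, Meis2 was uneven, at 1056 CPM in sub-cluster 2 (described below) and 190 CPM in the remaining cells.

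Lhx6 and Satb1, which mark neurons born in the medial ganglionic eminence, were low. Lhx6 had 11.2, 7.06, 4.89 and 8.74 CPM in Tac2 GABA neurons, against 22.8, 22.8, 22.5 and 23.6 CPM in other GABA neurons (log2 change -1.56 ± 0.25, adjusted p = 7.2e-06). Satb1, which acts after Lhx6 in cortical interneurons, had 5.59 to 14.9 CPM in Tac2 GABA neurons, against 26.7 to 30.5 CPM in other GABA neurons (log2 change -1.39 ± 0.22, adjusted p = 8.1e-06). Foxp1 and Lmo4, both abundant in striatal neurons, fell by 0.99 ± 0.12 and 0.78 ± 0.09 on the log2 scale. Their 4 Tac2 values, 32.9 to 69.0 and 88.6 to 153 CPM, lay under the lowest of the other cells, at 75.6 and 163 CPM.

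Of 19 peptide processing and granule genes, 1 was higher and 3 were lower, beside 1.33% and 1.82% of all genes. Cadps2, which primes dense-core vesicles for release, had 74.6, 94.1, 134 and 89.9 CPM in Tac2 GABA neurons, against 48.1, 56.7, 46.2 and 53.6 CPM in other GABA neurons (log2 change 0.91 ± 0.11, adjusted p = 1.2e-08). Nnat, an imprinted gene of the endoplasmic reticulum, had 347, 509.7, 345 and 368 CPM in Tac2 GABA neurons, against 756, 828, 589.7 and 683 CPM in other GABA neurons (log2 change -0.86 ± 0.06, adjusted p = 3.6e-17). Scg2, a granin of the same vesicles, fell by 0.39 ± 0.06 on the log2 scale, with 996 to 1518 CPM in Tac2 GABA neurons and 1192 to 1702 CPM in other GABA neurons. Vgf fell by 0.43 ± 0.08, a call that ended without female replicate 2 and by DESeq2. Dropping the block ended the calls of Scg2 and Vgf.

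Among calcium-binding genes, Pcp4, which encodes a calmodulin-binding peptide, had 2042, 2640, 2070 and 1973 CPM in Tac2 GABA neurons, against 1222, 1268, 1205 and 1149 CPM in other GABA neurons (log2 change 0.84 ± 0.05, adjusted p = 1.5e-20). Calb2, the gene of calretinin, had 330.0 to 514 CPM in Tac2 GABA neurons, against 279 to 303 CPM in other GABA neurons (log2 change 0.47 ± 0.07, adjusted p = 2.4e-06). Nrgn, a calmodulin store of dendrites, rose by 0.50 ± 0.07 on the log2 scale. Within the Tac2 cells, Nrgn stood at 789 CPM in sub-cluster 2 (described below) and 218 CPM in the remaining cells. The Calb2 call ended after thinning and the Nrgn call without the block. Of the 18 calcium-binding genes, 3 were higher and 3 lower. Of 29 reported markers of preoptic and bed nucleus populations, a list that holds some genes already named, 11 were higher and 4 lower. Over all genes tested, 1.33% were higher and 1.82% lower.

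The channel and transmitter receptor lists are read beside the 3.15% of all genes that were called. None of 18 GABA-A and glycine receptor subunit genes was called higher and 2 were lower, among them Gabrg1 (log2 change -0.57 ± 0.10). None of 23 glutamate receptor genes was higher and 3 were lower, led by Grm5, which had 134 to 155 CPM in Tac2 GABA neurons, against 207 to 247 CPM in other GABA neurons (log2 change -0.66 ± 0.08, adjusted p = 7.3e-09). Of 35 potassium channel genes, Kcnd2 was higher at 0.40 ± 0.10 and Kcnk2 lower at -0.47 ± 0.10 on the log2 scale. Leaving out female replicate 2 or male replicate 1 ended the Kcnd2 call, and leaving out male replicate 1 the Kcnk2 call. The Kcnk2 call also ended by DESeq2 and after thinning. A Tac2 minimum of 10 UMIs ended the Kcnd2 and Gabrg1 calls, and dropping the block those of Kcnd2, Kcnk2 and Gabrg1. Of 30 calcium, sodium and HCN channel genes, 0 were higher and 5 lower, and 5 had a positive log2 change. The median log2 change of this list was -0.23, beside -0.03 over all genes. Cacna2d1, which brings calcium channels to the membrane, had 37.5 to 46.3 CPM in Tac2 GABA neurons, against 65.2 to 78.7 CPM in other GABA neurons (log2 change -0.71 ± 0.13).

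Among 58 synaptic organiser and adhesion genes, 5 were higher and 6 lower, beside 1.33% and 1.82% of all genes. Cbln2, a cerebellin that bridges synapses, had 76.5, 66.7, 42.3 and 49.9 CPM in Tac2 GABA neurons, against 35.5, 32.0, 29.4 and 30.6 CPM in other GABA neurons (log2 change 0.89 ± 0.13, adjusted p = 1.0e-06). Cdh13, a cadherin without a membrane-spanning part, had 22.4 to 50.5 CPM in Tac2 GABA neurons, against 70.1 to 78.1 CPM in other GABA neurons (log2 change -0.88 ± 0.13). Nrp2, a semaphorin co-receptor, fell by 0.64 ± 0.12 on the log2 scale, a call that ended with a Tac2 minimum of 10 UMIs. Synpr, a synaptic vesicle protein gene, had 163 to 249.9 CPM in Tac2 GABA neurons, against 119 to 147 CPM in other GABA neurons (log2 change 0.56 ± 0.08, adjusted p = 1.0e-06).

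Further genes among the largest increases were Tgfb2 (1.35 ± 0.21), a growth factor, and Thrsp (1.06 ± 0.21), a thyroid hormone-responsive gene. Tekt5, Thsd7b and S100a10 lay at 1.03 ± 0.19, 1.00 ± 0.18 and 0.99 ± 0.13. Cyr61 (1.09 ± 0.20) lost its call without male replicate 2, Sostdc1 (1.02 ± 0.23) without female replicate 1 or male replicate 2, Otof (1.00 ± 0.23) without female replicate 1 and Olfm2 (0.99 ± 0.22) without female replicate 2. Among the decreases, Rasd1, Igfbp4 and Rgs16 lay at -1.78 ± 0.22, -1.73 ± 0.25 and -1.38 ± 0.18. At 24 early response genes, which dissociation can induce, 2 were higher and 1 lower, and Junb rose by 0.42 ± 0.07. With a Tac2 minimum of 10 UMIs the calls of Tgfb2, Cyr61, Otof, Olfm2 and Junb ended, and Junb turned to -0.08. Thinning ended the calls of Tgfb2, Thrsp, Tekt5, Thsd7b, Sostdc1 and Otof, and dropping the block those of S100a10, Rgs16, Cyr61, Sostdc1, Otof, Olfm2 and Junb. A Tac2 minimum of 3 UMIs ended the Sostdc1 call.

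Summed levels of marker lists for other cell types follow, over the 4 libraries. Astrocyte markers summed to 339 to 514 CPM in Tac2 GABA neurons and 209 to 260.5 CPM in other GABA neurons. Of 8 tested, 1 was higher, Aldoc, a glycolytic enzyme gene, with 380.4, 313, 369.6 and 408 CPM in Tac2 GABA neurons, against 183, 186, 182 and 181 CPM in other GABA neurons (log2 change 0.99 ± 0.07). Without Aldoc the other astrocyte markers summed to 20.5, 25.9, 76.5 and 106 CPM in Tac2 GABA neurons, against 26.7, 46.6, 78.7 and 65.9 CPM in other GABA neurons, lower in 3 of 4 libraries, a sum added after the data were seen. Mature oligodendrocyte markers summed to 522 to 1464 CPM in Tac2 GABA neurons and 532 to 991 CPM in other GABA neurons, with 0 of 7 called. Striatal projection neuron markers summed to 861 to 1283 CPM in Tac2 GABA neurons and 928 to 1755 CPM in other GABA neurons, with 4 of 7 lower. Mural and fibroblast markers were scarce, at 8.74 to 21.2 CPM in Tac2 GABA neurons and 28.2 to 80.9 CPM in other GABA neurons, with 4 of 7 lower. None of 5 oligodendrocyte precursor, 6 microglial and 4 ependymal markers tested was called. Endothelial markers summed to 54.1 to 91.4 CPM in Tac2 GABA neurons and 36.2 to 46.5 CPM in other GABA neurons, with 1 of 5 higher, Itm2a, which also led a sub-cluster. The Itm2a call ended after thinning. The part of these cell types in the results above was not tested.

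The population was not uniform. Clustering the 335 cells, with Tac2, sex-chromosome, early response and mitochondrial genes left out, gave 7 sub-clusters. They are described by their leading genes and carry no test, since the same data made them. They are numbered by size.

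Sub-cluster 1 held 105 cells (31.3%), with 25.4% to 35.6% of the Tac2 cells of each of the 4 libraries. Its leading genes were Sst, Gal, Cbln2, Pnoc, Gstm6 and Amigo2. Gal stood at 597 CPM in it and 147 CPM in the remaining Tac2 cells, and Pnoc at 309 CPM in it and 96.0 CPM in the remaining cells. Sst UMIs occurred in 30.5% of its cells and 28.3% of the remaining cells. Of its 341 Sst UMIs, 4 cells held 118, 76, 75 and 32. It also held most of the Grp, at 140.3 CPM in it and 13.6 CPM in the remaining cells.

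Sub-cluster 2 held 75 cells (22.4%) with a lower median depth of 6634 UMIs and at most 16 Tac2 UMIs in a cell. Foxp2, Egr4, Pcp4l1 and Ppp1r1b were among its leading genes, Foxp2 at 592 CPM against 17.6 CPM in the remaining Tac2 cells. Egr4 is an early response gene, as are Junb, Fos and Ier2. Junb stood at 997 CPM in sub-cluster 2 and 249 CPM in the remaining cells. Fos stood at 910 and 541 CPM and Ier2 at 9.60 and 28.7 CPM, in the same order. The part of dissociation in sub-cluster 2 was not tested. Penk stood at 1440 CPM in it and 173 CPM in the remaining cells, and Tac1 at 624 CPM in it and 159 CPM in the remaining cells. The striatal marker list summed to 3061 CPM here. It made up 7 of the 13 Tac2 cells of male replicate 3 and 17.9% to 24.1% in the 4 larger libraries.

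Sub-cluster 3 held 45 cells (13.4%) and was led by Trh, Slc10a4, Th, Htr3a, Chd7 and Tcf4. Trh stood at 332 CPM in it and 24.7 CPM in the remaining Tac2 cells. Th, the rate-limiting enzyme of dopamine synthesis, stood at 96.4 CPM in it and 6.09 CPM in the remaining cells. Nfix had a UMI in 95.6% of these cells, at 310 CPM, whereas it was found in 2.86% of sub-cluster 1.

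Sub-cluster 4 held 40 cells (11.9%), led by Vamp1, Sv2c, Nat8l, Nts, Esr1 and Klhl1. With doublet calls kept, it had the highest Tac2 level of the 7, at 2059 CPM. Esr1 stood at 91.6 CPM in it and 14.8 CPM in the remaining Tac2 cells, and Prlr at 313 CPM in it and 84.5 CPM in the remaining cells. In UMIs, the larger sub-cluster 1 held 27 of Esr1 and 146 of Prlr, beside 31 and 106 in sub-cluster 4. Gal was also high, at 771 CPM. It made up 8.62% and 12.5% of the Tac2 cells of female replicates 1 and 2, and 19.0% and 9.20% of those of male replicates 1 and 2.

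Sub-cluster 5, also of 40 cells, held most of the Crh, with 1139 CPM in it and 48.6 CPM in the remaining Tac2 cells, and a Crh UMI in 67.5% of its cells. Cd9, Scrg1, Wif1, S100a1 and Olig1 followed among its leading genes, and some of these are genes of the oligodendrocyte lineage. All 8 doublet calls fell in it. Without them Crh stood at 1370 CPM in 32 cells, Wif1 at 66.8 CPM against 65.1 CPM with them, and Olig1 at 24.0 CPM against 128 CPM. Tac2 stood at 2156 CPM without them and 1855 CPM with them, beside 2059 CPM in sub-cluster 4. No Esr1 UMI was found in sub-cluster 5.

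The remaining 2 were small. Sub-cluster 6 held 18 cells led by Id2, St18, Cartpt, Mia, Calb1 and Moxd1, with Cartpt at 2723 CPM in it and 183 CPM in the remaining Tac2 cells. Moxd1, known from dimorphic preoptic and bed nucleus neurons, stood at 105 CPM in it and 1.91 CPM in the remaining cells. Sub-cluster 7 held 12 cells led by Itm2a, Klf5, Arpp21, Acbd7, Ramp3 and Spink8, with Itm2a at 829.6 CPM in it and 27.8 CPM in the remaining cells, and a striatal marker sum of 6926 CPM.

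**Figure D5:**
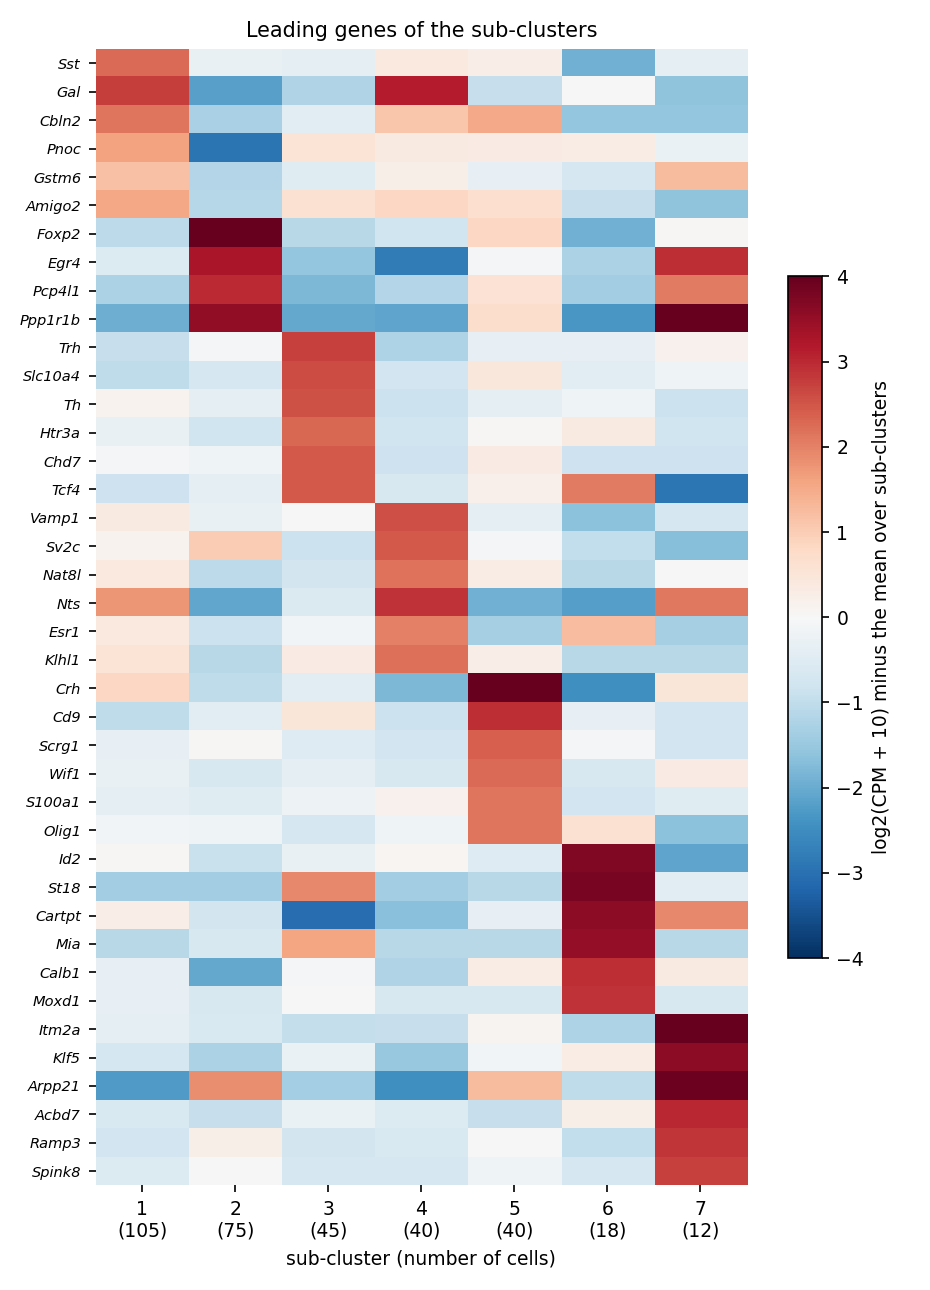
Level of leading genes (up to 6) of each of 7 sub-clusters of Tac2 GABA neurons, as log2(CPM + 10) minus the mean of that value over sub-clusters, with colours ending at -4 and 4. Blocks on the diagonal show the genes that led each sub-cluster, with Gal shared by sub-clusters 1 and 4 and Ppp1r1b by 2 and 7.

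The genes called between female and male Tac2 GABA neurons all lay on the sex chromosomes. With 2 libraries a sex, 5 of 8203 genes were called (0.061%), 1 higher (0.0122%) and 4 lower (0.0488%) in females. Xist, the transcript of the inactive X chromosome, had 845 and 685 CPM in females and 0 in both male libraries. Ddx3y, Eif2s3y, Kdm5d and Uty, which lie on the Y chromosome, had 0 UMIs in both female libraries. In males Ddx3y had 132 and 109 CPM, Eif2s3y 111 and 92.4 CPM, Kdm5d 30.9 and 31.2 CPM and Uty 19.5 and 31.2 CPM. At an unadjusted p under 0.05 stood 371 genes, and DESeq2 called 5. The number called was 48 without female replicate 1, 18 without female replicate 2, 38 without male replicate 1 and 33 without male replicate 2. In these fits the sex with 1 library has no spread of its own and is assumed to vary like the other.

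Esr1, called higher in the population, showed no sex difference past the threshold. Esr1 stood at 14.9 and 33.7 CPM in females and 21.2 and 11.2 CPM in males (female minus male 0.81 ± 0.45 on the log2 scale), and the sexes overlapped.

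Tac2 summed over all GABA neurons stood at 46.5, 53.2 and 134 CPM in female replicates 1, 2 and 3 and 52.9, 80.2 and 51.8 CPM in male replicates 1, 2 and 3. Female replicate 3 is high on 65 GABA neurons. The female minus male log2 difference was -0.09 ± 0.25 (edgeR, adjusted p = 0.98), or -0.24 ± 0.10 with the replicate number as a block (adjusted p = 0.14). It turned to 0.20, 0.08 and 0.18 without female replicate 1, female replicate 2 and male replicate 2. Fewer Tac2 cells and less Tac2 per cell cannot be told apart in this sum.

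For 28 of 14177 genes (0.198%) the sex difference of Tac2 GABA neurons departed from that of other GABA neurons, 17 upward (0.12%) and 11 downward (0.0776%) in females relative to males. The count was 6 without female replicate 2, 2 after thinning and 1, Penk, by DESeq2. The 5 with the smallest p were Penk, Cck, Cartpt, Cd9 and Cxcl14, and several rested on single cells. Penk had 572 and 351 CPM in female and 366 and 238 CPM in male Tac2 GABA neurons, against 835 and 599.6 CPM in female and 1026 and 932 CPM in male other GABA neurons (interaction 1.03 ± 0.12 on the log2 scale, adjusted p = 1.1e-14). In female replicate 1 a single cell held 137 of 307 Penk UMIs. The call ended after thinning and with a Tac2 minimum of 3 UMIs, where the interaction was 0.31.

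Cartpt had 289 and 173 CPM in female and 291 and 477 CPM in male Tac2 GABA neurons, against 276 and 255 CPM in female and 231 and 268 CPM in male other GABA neurons (-0.96 ± 0.12, adjusted p = 4.5e-12). The Cartpt call was lost without female replicate 2. Cck, the gene of cholecystokinin (2.01 ± 0.24), had 44.8 and 271 CPM in female and 26.1 and 29.96 CPM in male Tac2 GABA neurons, and 1 cell of female replicate 2 held 313 of that library's 345 Cck UMIs. Without that library the Cck interaction was 0.35 and not called. Cxcl14 (3.08 ± 0.45) had 58 of 59 UMIs in 1 cell of the same library and stood at 0.30 without it, not called. Cd9 (-1.65 ± 0.22) stood at 414 CPM in male replicate 1 and 34.5 to 42.9 CPM in the other 3. It turned to 0.51 without male replicate 1, and its call also ended without female replicate 2.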

How the data were processed

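Single-cell RNA of the mouse preoptic region was analysed from 3 female and 3 male libraries. The authors deposited raw UMI counts per gene and barcode, made with Cell Ranger 2.0.0 on mm10, per the submitters' processing notes, as 1 matrix of 27998 genes. Barcodes were tied to libraries by the suffix that the labels give. No source used here gives the gene annotation behind the counts or a sequencing batch.

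Counts were summed per library and population and tested with edgeR 4.0.16 (TMM, filterByExpr, quasi-likelihood F test, Benjamini-Hochberg adjustment over all genes tested, threshold 0.05), run in R 4.3.3. The 4 libraries with at least 20 Tac2 GABA neurons entered, with the library as block for the population and interaction tests. In the population, sex and interaction tests, the genes of the selection rule were left out of the adjustment and carry no call. The Tac2 test over all GABA neurons was adjusted over all genes, those of the rule included. DESeq2 1.42.0 was an alternative, and its adjustment took in the rule genes. Others were no expression filter, no doublets, thinning to 3000 UMIs, a Tac2 minimum of 3 or 10 UMIs, all 6 libraries, leaving out each library, and adding or dropping the block. The population, sex and interaction gene tests were run on simulated counts with known changes. In that order, they recovered 59%, 58.3% and 25.5% of log2 changes of 1, and 88.7%, 97.9% and 62.2% of log2 changes of 2. False calls numbered 6, 4 and 8. The simulated counts were drawn from the negative binomial count model that edgeR itself assumes. They do not copy genes whose UMIs sit mostly in single cells, so the false calls do not cover such genes. The Tac2 test over all GABA neurons and the test of shares were not simulated.

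Doublets were called per library with Scrublet (expected rate 0.06) in scanpy 1.11.5 and kept. Sub-clusters came from Leiden clustering (resolution 0.5, 20 components, 2000 variable genes picked per library, with female and male replicates 3 merged for that step because of their few cells). Depth was 1278429 to 81162330 UMIs per library, and intervals are exact (Clopper-Pearson). The upper limits given for counts of 0 are not from these intervals but are 3 divided by the number of cells. Same-numbered libraries deviated together in the sums over all GABA neurons (correlations 0.221, 0.171 and 0.222 for replicates 1, 2 and 3), so the blocked value is given there. The labels do not say that numbers mark a shared day.

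The members and gene lists were chosen with earlier results of these data known. Genes were named by rule: the 15 largest increases and 10 largest decreases among called genes of 1 sign in every library used with at least 20 CPM in the higher population, up to 4 called members and the 2 of highest level from each list, the sex-chromosome genes, and the 5 interaction genes of smallest p. Sub-clusters are given by up to 6 leading genes. Some genes that these rules name are not reported here. Pnoc, Gal, Nts, Pdyn, Kiss1, Tacr2, Esr2, Nfia and Nfib are outside that rule and were chosen after their values were seen.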

Additional observations from a re-analysis of the deposited data

Results flagged for a closer look

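In 6 of 136 sets of 4 library values checked, 1 library stood apart from the other 3, and chance gives about 1 in 20. In Tac2 GABA neurons these were Nnat at 509.7 CPM and Pcp4 at 2640 CPM in female replicate 2, Kcnd2 at 107 CPM in male replicate 1 and Cnr1 at 57.8 CPM in female replicate 1. In other GABA neurons they were Nrgn at 186 CPM and Cacna2d1 at 78.7 CPM, both in male replicate 1. Of these, Cnr1 was the gene whose outlying library also had the opposite sign to the pooled change.

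The female minus male difference departed between Tac2 and other GABA neurons for 28 genes by the interaction term. The 5 of smallest p were Penk at 1.03, Cck at 2.01, Cartpt at -0.96, Cd9 at -1.65 and Cxcl14 at 3.08 on the log2 scale. Single cells held 90.7% of the Cck and 98.3% of the Cxcl14 UMIs of female replicate 2, and 46.9% of the Cd9 UMIs of male replicate 1.

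Outside the GABA neurons, 60 barcodes carried Slc17a6 together with at least 5 Tac2 UMIs, against 0 of 6538 oligodendrocytes at that Tac2 level.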

How the results depend on the processing

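Of 66 called genes described between the populations, 29 stayed called with 1 sign under each of the 12 alternatives that could test them, among them Crh, Grp, Trh, Pnoc, Avp, Npy, Sst, Penk, Tac1 and Nfix. Genes higher in Tac2 GABA neurons, 189 in all, numbered 71 after thinning to 3000 UMIs, 59 with no replicate block and 117 to 152 with 1 library left out. Genes lower, 258 in all, numbered 77 by DESeq2, 86 after thinning, 51 with no replicate block and 121 to 180 with 1 library left out. Between the sexes in Tac2 GABA neurons, 1 higher and 4 lower gene became 17 and 26 without a filter, 2 and 2 after thinning, 4 and 9 with all 6 libraries and 18 and 28 with the replicate block. The higher count was also 2 without doublets and 3 with a Tac2 minimum of 10 UMIs. With 1 library left out the sex counts were 8 to 27 higher and 10 to 25 lower. These fits, and the interaction fits with 1 library left out, hold 1 library of a sex, which is assumed to vary like the others. For Tac2 GABA neurons, the deviations of same-numbered libraries correlated at 0.0372. With 2 libraries a sex, replicates 1 and 2 give the same value by construction, so it cannot decide whether the numbers are paired. Interaction calls, 17 up and 11 down, became 1 and 0 by DESeq2 (161 genes at an unadjusted p under 0.05), 1 and 1 after thinning, 11 and 7 with a Tac2 minimum of 3 UMIs, 6 and 2 with all 6 libraries, and 4 to 19 up and 2 to 21 down with 1 library left out. A Tac2 minimum of 10 UMIs turned Junb to -0.076 and Slc10a4 to -0.39. Cartpt, not called, ran from -0.093 without male replicate 2 to 0.45 without female replicate 2, and the Cd9 interaction from -2.63 without male replicate 2 to 0.51 without male replicate 1. Tac2 over all GABA neurons, female minus male, was 0.29 by DESeq2 and -0.28 to 0.20 with 1 library left out. The cause of these changes was not tested. Female and male replicates 3 did not enter the gene tests, so leaving them out gives no value there. The female minus male share kept its sign in each alternative, with exact permutation p of 0.2 to 1.0. The 0.2 came without male replicate 2, where the male shares of 2.07% and 2.18% lay under every female share. It is the smallest p that 3 against 2 libraries allow. The sex tests rest on 2 libraries each, with 536285 to 1275149 UMIs summed over the Tac2 GABA neurons of a library.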
